A study of Mus musculus with 9 samples.

Results

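The 10 genes described here encode surface proteins that have been used or studied as markers of mouse haematopoietic stem cells (HSCs) apart from the SLAM family antigens CD150 and CD48. They are Procr, Kit, Ly6a, Adgrl4, Alcam, Emb, Cd34, Neo1, Esam and Tek. They were picked by symbol from the deposited count table, with their levels in these libraries known, and all 10 were found among its 49585 genes. All 10 also stood among the 11619 genes that passed the filter on low counts. Because the levels themselves entered the choice, the values of these genes are given as a description, with errors and without p-values, and counts of those past a threshold support nothing beyond that.

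The study sorted 3 populations from cultures of expanded HSCs of wild-type C57BL/6 mice and sequenced the RNA of 3 replicates of each, 9 libraries in all. The cultures began with bone marrow cells of the CD34-CD150+KSL phenotype, where KSL means Kit positive, Sca-1 positive and negative for lineage markers. They were kept in F12 medium with 0.1% polyvinyl alcohol, thrombopoietin at 100 ng/ml and stem cell factor at 10 ng/ml, which all 3 populations share. The time in culture is given as 10 days in the design text and as a week in the growth protocol. The first population was CD201+CD150+CD48-KSL, called CD201+CD48- here. The second was CD201+CD150+CD48+KSL, called CD201+CD48+. The third was CD201-KSL, called CD201-; the titles of its libraries add CD150+CD48+, a detail that is absent from the treatment label and from the design text, so its gate for those antigens is uncertain. The labels give neither the age of the mice nor whether replicates came from separate cultures or animals, so p-values measure the spread between these libraries, which may be technical.

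CD201 is the endothelial protein C receptor, the product of Procr. It binds protein C on endothelium, where thrombin held by thrombomodulin activates protein C, and it is widely used to mark HSCs in fresh and cultured mouse marrow. Several of the other proteins are also best known from blood vessels, among them TIE2, the angiopoietin receptor encoded by Tek, and the junction protein ESAM. KIT, the receptor of stem cell factor, and Sca-1, the product of Ly6a, define the KSL gate that all 3 populations passed. Procr, Kit and Ly6a thus encode antigens of the sort itself. The other 7 proteins took no part in the gates of the final sort, and CD34 was used before the culture only.

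Libraries held between 3810123 and 7072885 counts. The third CD201- replicate stood apart from the other CD201- libraries. Its log2 differences from their mean were -0.69 for Procr, -1.16 for Ly6a and -0.60 for Esam. For these genes the fold change of CD201+CD48+ over CD201- cells is also given without that replicate. All other fold changes over CD201- cells are given with that replicate included and may depend on it. In bulk RNA, fewer cells of a type and less RNA per cell cannot be told apart. The level of a gene is given in CPM, the count scaled to a common library total with the TMM factors of edgeR, and differences as log2 fold changes with their standard error (SE). The CD201 step is the difference of CD201+CD48+ over CD201- cells, and the CD48 step that of CD201+CD48- over CD201+CD48+ cells. The steps share the CD201+CD48+ libraries and add up to the whole difference of CD201+CD48- over CD201- cells. Since the gate of CD201- cells for CD150 and CD48 is uncertain, the CD201 step may also hold differences in those antigens. A gene was said to follow CD201 where its CD201 step was the larger in size and its replicates did not overlap across that step, and to follow CD48 where the same held for the CD48 step.

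By that rule 7 genes followed CD201 (Procr, Kit, Ly6a, Adgrl4, Alcam, Emb and Esam) and 3 followed CD48 (Cd34, Neo1 and Tek). Procr encodes the antigen that defines the CD201 step, so its place among the 7 is not independent of the sort. Of all genes tested, 34.4% fell under the CD201 rule and 22.5% under the CD48 rule. The 2 SLAM genes behaved differently from one another. Cd48 had 6.18, 6.32 and 5.09 CPM in the CD201+CD48- libraries, 75.0, 86.9 and 88.0 CPM in the CD201+CD48+ libraries and 127, 120 and 127 CPM in the CD201- libraries. Slamf1, which encodes CD150, had 56.7, 57.1 and 58.7 CPM in the CD201+CD48- libraries, 47.3, 59.0 and 52.9 CPM in the CD201+CD48+ libraries and 43.6, 45.0 and 52.8 CPM in the CD201- libraries. Neither step of Slamf1 was free of overlap.

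**Figure D1:**
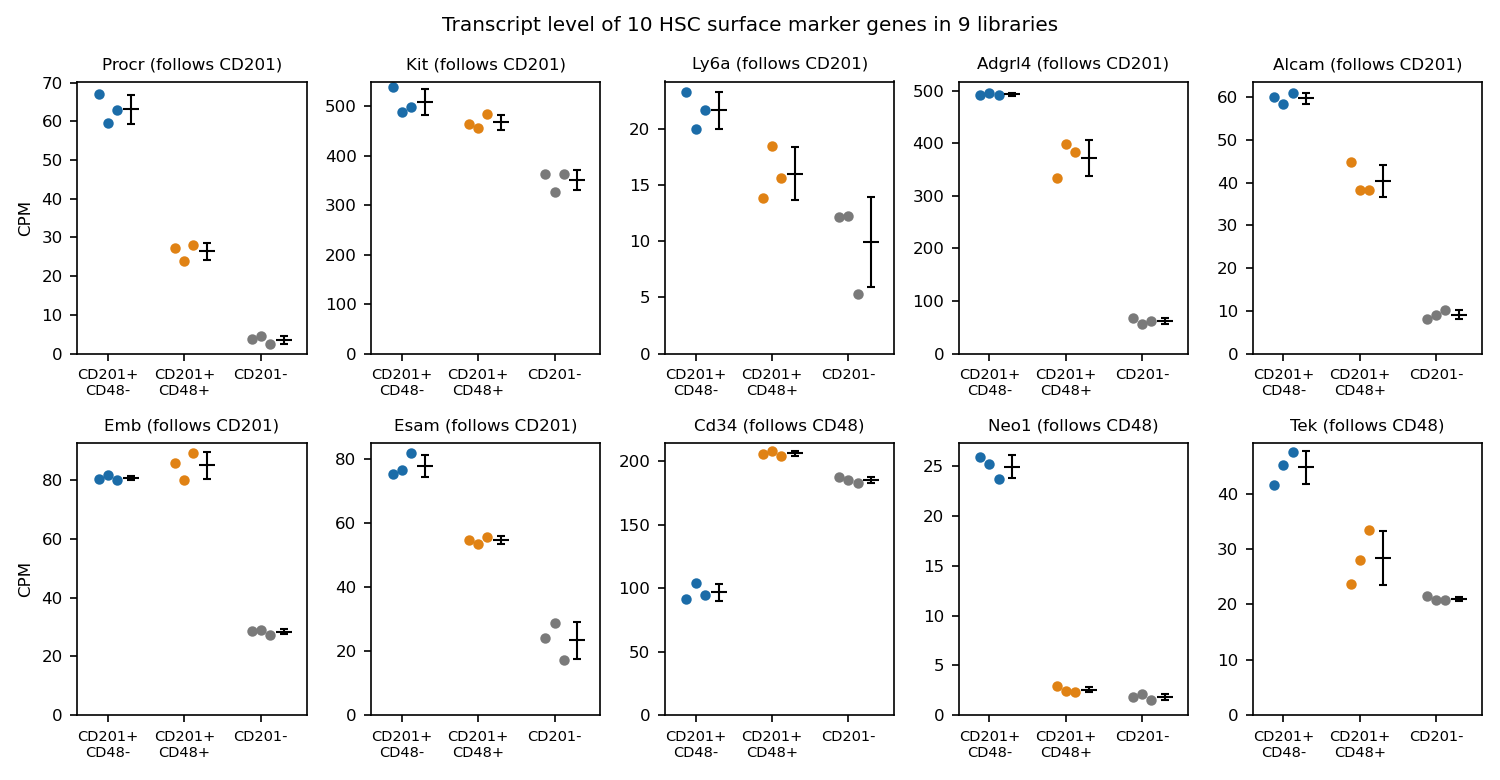
Level of the 10 surface marker genes in CPM (vertical axes, from 0) in each of the 9 libraries, by population, with mean and SD of 3 replicates beside the points. Adgrl4 lies between 57.0 and 67.5 CPM in CD201- cells and between 335 and 496 CPM in CD201+ libraries, whereas Cd34 lies between 91.3 and 104 CPM in CD201+CD48- cells and above 182 CPM elsewhere.

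Procr gave the widest span of the genes that followed CD201. It had 67.1, 59.6 and 62.9 CPM in the CD201+CD48- libraries, 27.3, 24.0 and 28.1 CPM in the CD201+CD48+ libraries and 3.76, 4.52 and 2.41 CPM in the CD201- libraries, the last from 17, 21 and 11 counts. The 3 populations did not overlap, and the 2 populations gated as CD201 positive differed from each other. The CD201 step was 2.89 ± 0.18 and the CD48 step 1.25 ± 0.11 (log2 ± SE), so that 69.7% of the whole log2 difference lay at the CD201 step. The level in CD201- cells is low but above 0, and the third CD201- replicate was the lowest; without it the CD201 step was 2.68.

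Kit was high everywhere and spanned little. It had 539.7, 489 and 498 CPM in the CD201+CD48- libraries, 464, 455 and 484 CPM in the CD201+CD48+ libraries and 362, 327 and 362 CPM in the CD201- libraries. Every CD201+ library was above every CD201- library, and the CD201+ populations lay next to each other without overlap. Its CD201 step was 0.42 ± 0.08 and its CD48 step 0.12 ± 0.08, which makes CD201+CD48- cells 1.45-fold above CD201- cells for a gene whose protein all 3 sorts required.

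Ly6a, whose product Sca-1 is a lipid-anchored protein of the Ly6 family, was the least settled of the 7. It had 23.3, 20.0 and 21.7 CPM in the CD201+CD48- libraries, 13.8, 18.5 and 15.7 CPM in the CD201+CD48+ libraries and 12.2, 12.3 and 5.26 CPM in the CD201- libraries. The last of these, in the third CD201- replicate, rests on 24 counts. With it the CD201 step was 0.69 ± 0.23 and the CD48 step 0.45 ± 0.20; without it the CD201 step was 0.38 and Ly6a came under the CD48 rule. Ly6a also overlaps the predicted gene Gm28068 and has near relatives in its cluster, and the sources used here do not say whether reads were counted by strand, so its counts are less certain.

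Adgrl4 and Alcam had a wide CD201 step and a smaller one at CD48. Adgrl4 (also called ELTD1) is an adhesion G protein-coupled receptor known from endothelium. It had 492, 496 and 492 CPM in the CD201+CD48- libraries, 335, 398 and 384 CPM in the CD201+CD48+ libraries and 67.5, 57.0 and 62.7 CPM in the CD201- libraries. Its CD201 step was 2.58 ± 0.09 and its CD48 step 0.41 ± 0.08, with 86.4% of the whole log2 difference at the CD201 step, and the replicate SD in CD201+CD48- cells was 2.41 CPM around a mean of 493 CPM. Alcam encodes CD166, an immunoglobulin-type adhesion molecule that binds CD6 and itself. It had 60.0, 58.4 and 60.9 CPM in the CD201+CD48- libraries, 44.8, 38.2 and 38.4 CPM in the CD201+CD48+ libraries and 7.97, 9.04 and 10.1 CPM in the CD201- libraries. Its steps were 2.16 ± 0.13 at CD201 and 0.56 ± 0.10 at CD48. In both genes the populations did not overlap, and Alcam overlaps the predicted genes Gm32597 and Gm41461.

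Emb was the gene with the flattest CD48 step. Its product, embigin, accompanies monocarboxylate transporters to the membrane and binds the matrix. Emb had 80.5, 81.6 and 80.1 CPM in the CD201+CD48- libraries, 85.8, 80.1 and 89.1 CPM in the CD201+CD48+ libraries and 28.8, 28.8 and 27.4 CPM in the CD201- libraries. The 2 CD201+ populations overlapped and the CD201- libraries lay apart from both. The CD201 step was 1.59 ± 0.09 and the CD48 step -0.08 ± 0.08, so its level in CD201+CD48- cells was 2.85-fold that in CD201- cells and 0.949-fold that in CD201+CD48+ cells. Emb overlaps the predicted gene Gm35144.

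Esam, a cell contact protein of endothelium, platelets and HSCs, descended across all 3 populations. It had 75.6, 76.6 and 81.9 CPM in the CD201+CD48- libraries, 54.8, 53.5 and 55.8 CPM in the CD201+CD48+ libraries and 24.1, 28.8 and 17.3 CPM in the CD201- libraries, with no overlap. The CD201 step was 1.22 ± 0.13 and the CD48 step 0.51 ± 0.12. Without the third CD201- replicate, again the lowest, the CD201 step was 1.05.

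The 3 genes that followed CD48 did so in 3 different ways. Cd34, a sialomucin of progenitors and endothelium, ran opposite to all the others. It had 91.3, 104 and 94.5 CPM in the CD201+CD48- libraries, 205, 208 and 205 CPM in the CD201+CD48+ libraries and 187, 185 and 183 CPM in the CD201- libraries. The CD201+CD48- libraries were the low ones, and CD201+CD48+ libraries lay slightly above CD201- libraries without overlap. The CD48 step was -1.10 ± 0.07, a level 0.468-fold that of CD201+CD48+ cells, and the CD201 step was 0.16 ± 0.07 in the other direction. The starting cells had been sorted as CD34-, but CD34 played no part in the gates after culture. Cd34 overlaps the predicted gene Gm16897.

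Neo1 encodes neogenin, a receptor of netrins and of repulsive guidance molecules. It had 26.0, 25.3 and 23.7 CPM in the CD201+CD48- libraries, 2.90, 2.46 and 2.34 CPM in the CD201+CD48+ libraries and 1.77, 2.15 and 1.53 CPM in the CD201- libraries. The first population stood far above the other 2, which lay close to each other. The CD48 step was 3.28 ± 0.18, or 9.70-fold, and the CD201 step 0.48 ± 0.30. The low levels rest on 47 counts over the 3 CD201+CD48+ libraries (95% Poisson interval 34.5 to 62.5) and on 25 counts over the 3 CD201- libraries (16.2 to 36.9), against 354 counts (318 to 393) in CD201+CD48- libraries; the intervals cover counting error only. Of the whole log2 difference of Neo1, 12.8% lay at the CD201 step.

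Tek was the most evenly divided gene. It had 41.7, 45.2 and 47.6 CPM in the CD201+CD48- libraries, 23.7, 28.0 and 33.4 CPM in the CD201+CD48+ libraries and 21.5, 20.9 and 20.8 CPM in the CD201- libraries. The CD201+CD48+ libraries were spread between the other populations, with the lowest close to CD201- cells. The CD48 step was 0.65 ± 0.12 and the CD201 step 0.44 ± 0.13, and the difference between the sizes of these steps, 0.21 ± 0.22, was smaller than its SE. Without the first CD201+CD48+ replicate, Tek came under the CD201 rule.

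**Figure D2:**
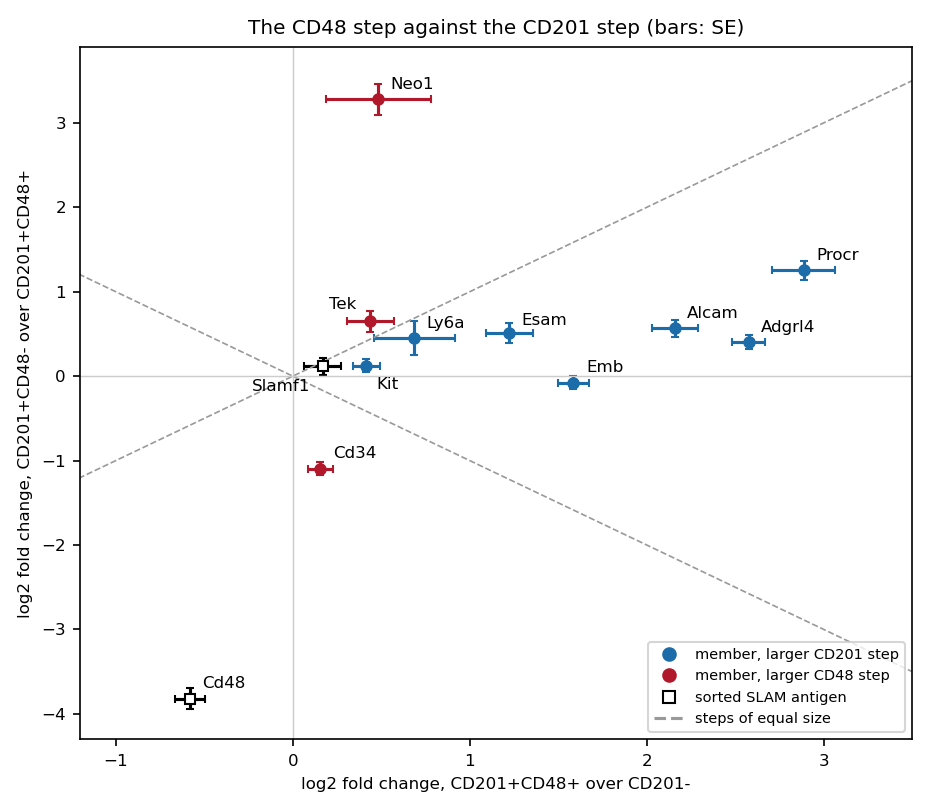
CD48 step (vertical, log2 fold change of CD201+CD48- over CD201+CD48+) against CD201 step (horizontal, log2 fold change of CD201+CD48+ over CD201-) for the 10 genes and the SLAM genes Cd48 and Slamf1, with bars for the SE and dashed lines where both steps have the same size. Adgrl4, Alcam, Emb and Procr lie far to the right, Neo1 lies at the top at 3.28 on the vertical axis, Cd34 lies below 0 at -1.10, and Ly6a and Tek lie within about their SE of the line.

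Counted by the quasi-likelihood test of edgeR, adjusted over all genes after Benjamini and Hochberg, CD201+CD48- over CD201- cells had 9 of the 10 genes higher and 1 (Cd34) lower, where 48.1% of all tested genes passed, 24.2% higher and 23.9% lower. In CD201+CD48+ over CD201- cells 8 were higher and none lower, against 29.1% of all tested genes, 14.8% higher and 14.3% lower; Cd34 and Neo1 did not pass, and Ly6a, counted among the 8, passed in 11 of 18 alternative analyses. In CD201+CD48- over CD201+CD48+ cells 6 were higher and 1 (Cd34) lower, against 15.4% of all tested genes, 9.05% higher and 6.31% lower; Kit, Ly6a and Emb did not pass. Replicates did not overlap for 10, 10 and 9 genes in these comparisons, where 55.2%, 41.7% and 40.7% of all tested genes did not. The median log2 fold changes of the 10 genes were 1.62, 0.95 and 0.48, against 0.0032, -0.0022 and -0.0054 over all tested genes. These counts describe genes chosen with these contrasts known.

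Dividing CPM by transcript length (CPM per kb, with the median length of annotated coding transcripts) allowed the levels of different genes to be set side by side. For Ly6a that length, 3785 bases, exceeds the 3155 bases of its RefSeq gene, so its values and places here are uncertain. In CD201+CD48- cells Adgrl4 was the highest at 120 ± 0.59 CPM per kb and Kit followed at 96.6 ± 5.09 (SD, n = 3). Esam, Procr and Cd34 came next at 41.2 ± 1.81, 39.3 ± 2.32 and 38.1 ± 2.62 CPM per kb, and their replicates overlapped from neighbour to neighbour. Emb at 11.9, Alcam at 10.1, Tek at 9.07, Ly6a at 5.72 and Neo1 at 3.19 CPM per kb were each apart from the next in their replicates. Overlap in this paragraph refers to replicates only and leaves out any error of the lengths, for all 10 genes. In CD201+CD48+ cells Adgrl4 at 90.7 ± 8.16 and Kit at 88.8 ± 2.75 CPM per kb overlapped, with Cd34 at 81.2 ± 0.82 just below and Neo1 last at 0.328 CPM per kb. Procr stood between Esam and Emb there, at 16.4 ± 1.34 CPM per kb. In CD201- cells Cd34 led at 72.9 ± 0.97 CPM per kb, ahead of Kit at 66.6 ± 3.81, and Adgrl4 at 15.2 ± 1.28 overlapped Esam at 12.4 ± 3.06. Tek and Emb, at 4.26 and 4.17 CPM per kb, overlapped in CD201- cells, as did Ly6a with Procr and Procr with Alcam, at 2.62, 2.21 and 1.53. The order of the genes therefore differed between populations, with Cd34 below Esam and Procr in CD201+CD48- cells and above all the others in CD201- cells.

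**Figure D3:**
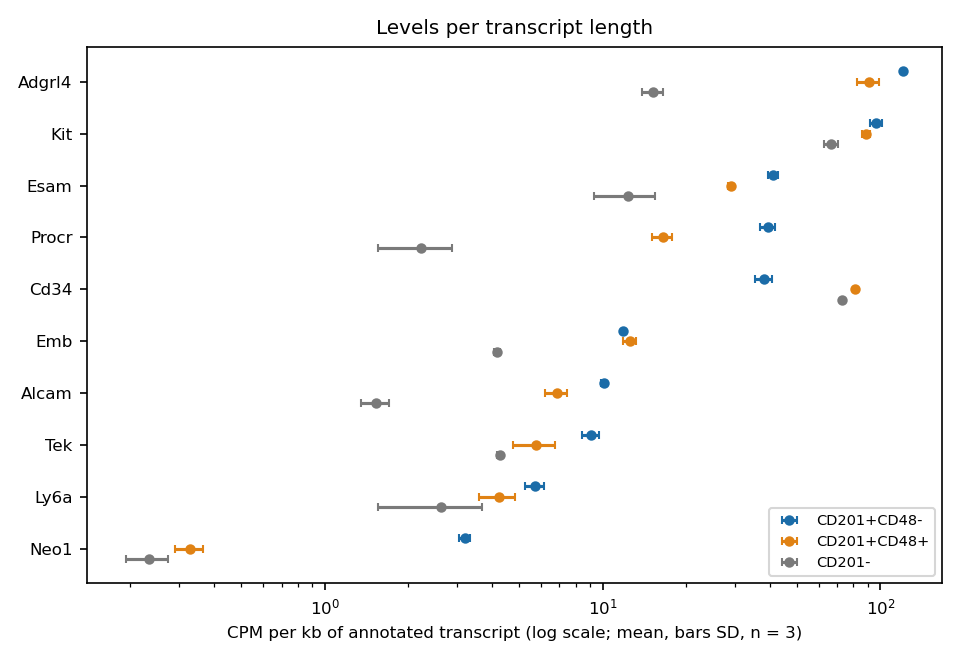
Mean level of the 10 genes per kb of annotated transcript (horizontal log axis, bars SD, n = 3) in the 3 populations. Adgrl4 and Kit lead in CD201+CD48- cells at 120 and 96.6 CPM per kb, Neo1 is lowest in all 3 populations, and Cd34 is the gene whose CD201+CD48- level lies left of the other two. The length used for Ly6a exceeds that of its RefSeq gene, so its position is uncertain.

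RefSeq promoters, taken as 250 bases before to 50 bases after an annotated start in GRCm38.p6, the assembly of mm10, matched 8 of the 10 genes (all but Ly6a and Esam). In the same annotation the gene of Ly6a spans chr15:74994877-74998031, that of Esam chr9:37528089-37538319, that of Kit chr5:75574987-75656722 and that of Emb chr13:117220573-117274415. The sequences printed are those of the 3 genes with the widest CD201 step and of the 3 genes that followed CD48, since these are the patterns that the genes show. Each is given 5′ to 3′ on the strand of its gene, with capitals marking matches on either strand to 5 motifs. These are GGAAG, the core of ETS factor sites; GATAA, bound by GATA factors; TGTGGT, bound by RUNX factors; CACGTG, an E-box; and GGGCGG, bound by SP and KLF factors. None of these motifs overlaps another in the printed windows. The 3 genes that followed CD201 come first.
Procr promoter, GRCm38.p6 chr2:155750967-155751266, plus strand: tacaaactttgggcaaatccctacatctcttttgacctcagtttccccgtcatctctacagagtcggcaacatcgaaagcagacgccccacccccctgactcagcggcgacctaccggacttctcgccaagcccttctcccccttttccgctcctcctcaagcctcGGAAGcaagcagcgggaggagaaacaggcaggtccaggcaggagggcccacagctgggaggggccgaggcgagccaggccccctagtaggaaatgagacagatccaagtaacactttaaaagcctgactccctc
Adgrl4 promoter, GRCm38.p6 chr3:151437632-151437931, plus strand: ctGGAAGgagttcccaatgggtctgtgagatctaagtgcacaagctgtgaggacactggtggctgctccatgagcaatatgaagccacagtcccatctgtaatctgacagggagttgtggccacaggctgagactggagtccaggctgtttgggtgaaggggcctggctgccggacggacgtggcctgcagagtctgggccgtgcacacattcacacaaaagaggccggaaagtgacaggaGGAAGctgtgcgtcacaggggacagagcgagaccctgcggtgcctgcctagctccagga
Alcam promoter, GRCm38.p6 chr16:52453032-52453331, minus strand: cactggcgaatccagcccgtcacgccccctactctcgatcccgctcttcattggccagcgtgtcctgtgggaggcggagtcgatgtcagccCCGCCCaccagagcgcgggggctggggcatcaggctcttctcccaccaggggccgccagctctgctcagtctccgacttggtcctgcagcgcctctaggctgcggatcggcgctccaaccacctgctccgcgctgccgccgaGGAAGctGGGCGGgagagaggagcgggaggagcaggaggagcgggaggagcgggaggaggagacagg
The 3 genes that followed CD48 come next.
Cd34 promoter, GRCm38.p6 chr1:194938571-194938870, plus strand: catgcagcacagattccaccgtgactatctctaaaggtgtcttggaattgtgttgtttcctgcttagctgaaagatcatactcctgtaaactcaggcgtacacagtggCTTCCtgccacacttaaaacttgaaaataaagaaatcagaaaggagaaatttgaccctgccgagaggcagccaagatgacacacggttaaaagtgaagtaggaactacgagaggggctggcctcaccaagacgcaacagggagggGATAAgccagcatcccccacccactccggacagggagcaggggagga
Neo1 promoter, GRCm38.p6 chr9:59036392-59036691, minus strand: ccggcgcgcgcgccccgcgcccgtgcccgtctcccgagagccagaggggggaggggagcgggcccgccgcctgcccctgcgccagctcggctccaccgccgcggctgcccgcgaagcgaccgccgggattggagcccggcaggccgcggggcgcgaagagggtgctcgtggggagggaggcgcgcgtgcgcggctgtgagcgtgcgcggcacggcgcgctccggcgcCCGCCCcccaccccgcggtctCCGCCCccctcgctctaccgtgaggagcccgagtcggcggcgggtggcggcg
Tek promoter, GRCm38.p6 chr4:94739039-94739338, plus strand: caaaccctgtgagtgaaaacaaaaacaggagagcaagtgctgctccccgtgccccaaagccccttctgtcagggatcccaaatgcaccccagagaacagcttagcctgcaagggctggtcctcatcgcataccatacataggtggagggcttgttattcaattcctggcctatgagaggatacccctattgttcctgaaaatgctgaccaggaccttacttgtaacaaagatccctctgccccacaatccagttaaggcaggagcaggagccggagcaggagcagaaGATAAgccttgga
Of the 8 promoters, 5 held GGAAG (Procr, Kit, Adgrl4, Alcam and Cd34), as did 71.4% of 32851 mouse promoters of the same length. GATAA was in those of Cd34 and Tek and in 25.4% of all promoters. GGGCGG was in those of Kit, Alcam, Emb and Neo1 and in 35.7% of all promoters. TGTGGT and CACGTG were in none of the 8, against 16.8% and 7.15% of all promoters. A match is a description of letters only. Base composition differed among the genes that followed CD48: the Neo1 window had 82.7% G and C and 54 CpG pairs, the Tek window 52.0% and 3 pairs, and that of Cd34 50.0% G and C. The median of the 8 genes was 58.5% G and C, against 52.7% over all promoters.

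The genes whose log2 CPM ran most nearly parallel over the 9 libraries, out of 8834 genes with a mean of at least 10 CPM, are given as a description, since the points share libraries and fall into 3 populations. Procr was nearest to Tgfbr3, a co-receptor of TGF-beta (Pearson r = 0.997), then Nav2 and Psap. Adgrl4 was nearest to Ablim1, Rassf4 and Fgd4 (first r = 0.997), Alcam to Wbscr27, Kmt2a and Fmnl2 (0.997), Esam to Lamb2, Tor3a and Gstm1 (0.997), and Emb to Arhgef40, Gabbr1 and Icosl (0.994). Kit was nearest to Tcf4, Xpr1 and Atp8b2 (first r = 0.990) and Ly6a to Fam132a, Ubac2 and Xkr6 (0.993). Of the genes that followed CD48, Neo1 was nearest to Ehd3 (r = 0.993), to Vwf, which encodes von Willebrand factor (0.988), and to Lmna, which encodes lamin A (0.987). Cd34 was nearest to Gpr65, Galnt6 and Serpinb1a (first r = 0.988), and Tek to Bbip1, Wipi1 and Cd81 (0.979). Among the 10 genes themselves, Procr and Esam had r = 0.992, Adgrl4 and Alcam 0.988, Neo1 and Tek 0.912, and Neo1 and Cd34 -0.963.

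Partners and relatives of the 10 proteins were counted in 13 lists that leave out the 10 genes; the lists share some genes. Adjusted p-values in these paragraphs are from the same edgeR test, adjusted over all genes in the same way, SDs are over n = 3, and medians are of log2 fold changes, to be read against those of all tested genes given above. Counts in the comparison at CD48 depended on the third CD201- replicate, through the shared estimate of the spread: without it 3534 genes passed there in place of 1785. Leaving out any 1 library moved 32 of the 78 list counts by over 1.5 times, in 89 of 94 cases by only 1 or 2 genes, so counts that differ by that little are not distinct. The larger moves are given beside their lists. The counts are to be read against the 48.1%, 29.1% and 15.4% of all tested genes that passed in the 3 comparisons.

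Of 10 tested genes around protein C, thrombin and their receptors, 4 were higher and 1 lower for CD201+CD48- over CD201- cells (median 0.26), none higher and 2 lower for CD201+CD48+ over CD201- cells (median -0.15), and 4 higher and none lower in CD201+CD48- than in CD201+CD48+ cells (median 0.29). F5, which encodes coagulation factor V, had 125 ± 21.5 CPM in CD201+CD48- cells, against 38.5 ± 5.79 CPM in CD201+CD48+ cells (log2 fold change 1.71 ± 0.13 SE, edgeR adjusted p = 7.34e-07). Pros1, which encodes protein S, a cofactor of activated protein C, had 31.5 ± 1.50 CPM and 11.3 ± 0.71 CPM in these populations (1.48 ± 0.16, edgeR adjusted p = 9.85e-06). F2rl2, a protease-activated receptor, was higher at the same step on low levels (2.72 ± 0.45, edgeR adjusted p = 0.000728). The thrombin receptor gene F2r was 0.35 ± 0.07 higher in CD201+CD48- than in CD201+CD48+ cells and lower in the CD201+CD48+ than in the CD201- population (-0.27 ± 0.07). Procr itself had its larger step at CD201, where none of these 10 genes was higher (1 without the third CD201- replicate) and 2 were lower. Of all tested genes, 14.8% were higher and 14.3% lower there, so these counts are near that share.

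Of 28 tested genes of Kit signalling, 7 were higher and 5 lower for CD201+CD48- over CD201- cells (median 0.06), 3 and 4 for CD201+CD48+ over CD201- cells (-0.03), and 2 and 2 in CD201+CD48- than in CD201+CD48+ cells (0.07). With all libraries in the fit, the share that passed in each comparison was close to that of all tested genes, and slightly below it. Without the third CD201- replicate, 7 rather than 2 were higher in this last comparison. Src had 8.95 ± 1.46 CPM in CD201+CD48- cells, against 1.02 ± 0.44 CPM in CD201- cells (3.12 ± 0.34, edgeR adjusted p = 2.55e-06). Sh2b3, the gene of the adaptor LNK, which restrains cytokine receptor signals, had 112 ± 8.49 CPM and 62.0 ± 13.3 CPM in these cells (0.85 ± 0.13, edgeR adjusted p = 0.000105). Cblb, a ubiquitin ligase gene, was also higher (0.52 ± 0.09), and the adaptor gene Grb2 was lower (-0.44 ± 0.07, edgeR adjusted p = 0.000105).

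Of 7 tested genes of the angiopoietin and Tie pathway, 4, 1 and 2 were higher and 0, 1 and 0 lower in CD201+CD48- over CD201-, CD201+CD48+ over CD201-, and CD201+CD48- over CD201+CD48+ cells (medians 0.23, 0.32 and 0.26). Without the third CD201- replicate the counts higher were 2 in the second comparison and 4 in the third. Tie1, the receptor gene next of kin to Tek, had 192 ± 14.6 CPM in CD201+CD48- cells, against 114 ± 24.1 CPM in CD201- cells (0.75 ± 0.12, edgeR adjusted p = 0.000144). Foxo1, a transcription factor gene under the control of this pathway, had 23.1 ± 1.26 CPM and 11.2 ± 2.98 CPM there (1.05 ± 0.17, edgeR adjusted p = 0.000118). Angpt1, the gene of the TIE2 ligand angiopoietin 1, was abundant in the same cells at 391 ± 4.52 CPM in CD201+CD48- cells, against 335 ± 38.7 CPM in CD201- cells; its log2 fold change of 0.23 ± 0.08 (edgeR adjusted p = 0.0363) lost its call in 9 of 18 alternative analyses.

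Of 12 tested genes of cell junctions, the relatives of Esam, 6, 4 and 4 were higher and 2, 1 and 1 lower in the same 3 comparisons (medians 0.63, 0.35 and 0.26). Jam3 had 30.8 ± 3.43 CPM in CD201+CD48- cells, 14.4 ± 0.47 CPM in CD201+CD48+ cells but 6.57 ± 1.67 CPM in CD201- cells, and passed in all 3 comparisons. F11r, which encodes JAM-A, had 55.9 ± 3.35, 32.8 ± 1.80 and 21.7 ± 2.73 CPM in these populations and passed in all 3 as well. The occludin gene Ocln had 15.6 ± 2.49 CPM in CD201+CD48- cells, against 0.507 ± 0.454 CPM in CD201- cells (4.86 ± 0.42, edgeR adjusted p = 2.35e-07). Pecam1 went the other way in both CD201+ populations, at 91.7 ± 5.51 CPM in CD201+CD48- and 85.5 ± 5.31 CPM in CD201+CD48+ cells, against 130.5 ± 10.7 CPM in CD201- cells (log2 fold changes -0.51 ± 0.08 and -0.61 ± 0.08, edgeR adjusted p = 0.000163 and 7.38e-05).

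Of 10 tested immunoglobulin-type adhesion genes, the relatives of Alcam, 6, 5 and 4 were higher and none lower in the 3 comparisons (medians 0.64, 0.51 and 0.21). Without the third CD201- replicate 1 was lower in each of the first 2 comparisons. Bcam, which encodes a laminin-binding protein, had 53.1 ± 4.91 CPM in CD201+CD48- cells, 19.5 ± 1.89 CPM in CD201+CD48+ cells, against 3.72 ± 0.62 CPM in CD201- cells (CD201+CD48- over CD201-, 3.83 ± 0.16, edgeR adjusted p = 1.06e-10). Ncam2 had 83.4 ± 1.51, 44.4 ± 1.43 and 15.3 ± 4.72 CPM, and Icam1 had 67.6 ± 5.59, 46.0 ± 3.22 and 23.0 ± 2.56 CPM, in the same order of populations. All 3 passed in all 3 comparisons.

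Of 11 tested adhesion receptor genes of the family of Adgrl4, 6, 2 and 1 were higher and 2, 3 and 2 lower (medians 0.36, 0.05 and 0.29), with 3 rather than 1 higher in the last comparison without the third CD201- replicate. In the first comparison 3 rather than 6 were higher without the first CD201+CD48- replicate and 2 without the third. Adgrg3 had 18.7 ± 4.36 CPM in CD201+CD48- cells, against 85.0 ± 6.21 CPM in CD201- cells, so it was lower where Adgrl4 was higher (-2.16 ± 0.14, edgeR adjusted p = 6.92e-09). Adgrd1 had 5.07 ± 1.10 CPM and 0.874 ± 0.581 CPM in these cells (2.48 ± 0.41, edgeR adjusted p = 0.000139). Of 12 tested genes around embigin, its relatives and the monocarboxylate transporters, 5, 3 and 2 were higher and 4, 5 and 0 lower (medians 0.11, 0.03 and 0.02), and 1 rather than none was lower in the last comparison without the third CD201- replicate. The carrier gene Slc16a9 had 15.1 ± 1.62, 8.18 ± 0.77 and 2.62 ± 0.75 CPM in CD201+CD48-, CD201+CD48+ and CD201- cells and passed in all 3 comparisons. Slc16a1, the gene of the lactate carrier MCT1, had 91.0 ± 3.78 CPM in CD201+CD48- cells, against 140.2 ± 10.4 CPM in CD201- cells (-0.62 ± 0.08, edgeR adjusted p = 1.65e-05).

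Of 10 tested sialomucin and related genes, the kin of Cd34, 3, 2 and 1 were higher and 3, 2 and 4 lower (medians -0.0074, 0.08 and -0.0031). Podxl, the gene of podocalyxin, a close relative of CD34, had 101 ± 6.47 CPM in CD201+CD48- cells, 161 ± 13.6 CPM in CD201+CD48+ cells, against 319 ± 29.3 CPM in CD201- cells (CD201+CD48- over CD201-, -1.66 ± 0.09, edgeR adjusted p = 1.77e-09). Like Cd34 it was lowest in CD201+CD48- cells, and it fell at the CD201 step too (-0.98 ± 0.09, edgeR adjusted p = 1.26e-06), where Cd34 had 0.16 ± 0.07. Muc13 had 399 ± 7.84 CPM in CD201+CD48- cells, against 537 ± 11.7 CPM in CD201+CD48+ cells (-0.43 ± 0.07, edgeR adjusted p = 0.00105). Emcn, the endomucin gene, had 14.6 ± 1.32 CPM in CD201+CD48- cells, against 1.82 ± 0.47 CPM in CD201- cells (2.99 ± 0.28, edgeR adjusted p = 4.76e-07). Of 24 listed relatives of Ly6a only 4 had enough counts for a test, and 0, 0 and 0 were higher and 1, 0 and 1 lower (medians -0.09, -0.18 and 0.09); without the third CD201- replicate 2 and 1 were lower in the first 2 comparisons. Lypd6b was the one that fell with all libraries in the fit, to 0.419 ± 0.171 CPM in CD201+CD48- cells, against 4.81 ± 2.86 CPM in CD201- cells (edgeR adjusted p = 0.000184).

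Of 24 listed genes of netrin, repulsive guidance molecule and BMP receptor signalling around neogenin, only 8 were tested. These were Unc5a, Lrig1, Lrig2, Lrig3, Bmp4, Bmpr2, Acvr1 and Ptk2, with no gene of a netrin or a repulsive guidance molecule among them. Of the 8, 5, 4 and 2 were higher and none lower (medians 0.94, 0.67 and 0.29). Ptk2, the focal adhesion kinase gene, had 63.3 ± 1.00, 38.8 ± 1.67 and 18.5 ± 3.42 CPM in CD201+CD48-, CD201+CD48+ and CD201- cells. Bmpr2, a BMP receptor gene, had 252 ± 13.1, 200.2 ± 0.49 and 129 ± 4.46 CPM in the same populations. Both passed in all 3 comparisons, but at the CD48 step by 0.70 ± 0.11 and 0.33 ± 0.07, where Neo1 differed by 3.28. Bmp4, a ligand gene, had 47 counts over the CD201+CD48- libraries, 30 over the CD201+CD48+ libraries but 0 over the CD201- libraries. Against a floor of 3 counts over the CD201- group, Bmp4 was 15.2-fold and 7.46-fold higher in these CD201+ populations. Counting error of the 47 and 30 counts is left out of these ratios.

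Of 14 tested genes of ectodomain shedding, the proteases and inhibitors that release surface proteins, 6, 3 and 4 were higher and 2, 3 and 0 lower (medians 0.13, -0.10 and 0.21); without the third CD201- replicate 8 rather than 4 were higher and 1 rather than none lower in the last comparison, and 1 rather than 2 lower in the first. Timp3, which encodes a protease inhibitor, had 28.3 ± 3.64 CPM in CD201+CD48- cells, against 10.9 ± 0.37 CPM in CD201+CD48+ cells (1.39 ± 0.14, edgeR adjusted p = 8.90e-06). Of 24 tested genes of other surface markers of HSCs, 12, 9 and 13 were higher and 2, 5 and 3 lower (medians 0.48, 0.13 and 0.35), with none rather than 3 lower in the last comparison without the third CD201+CD48- replicate, and 1 rather than 2 lower in the first without the third CD201- replicate. Cd82, a tetraspanin gene, had 106 ± 7.58, 62.9 ± 5.53 and 21.8 ± 0.78 CPM in CD201+CD48-, CD201+CD48+ and CD201- cells and passed in all 3 comparisons. Itgb3, an integrin gene, had 235 ± 39.3, 31.2 ± 1.33 and 66.6 ± 2.71 CPM there, so it fell at the CD201 step (-1.09 ± 0.12, edgeR adjusted p = 6.75e-06) and rose at the CD48 step (2.91 ± 0.11, edgeR adjusted p = 1.25e-10). Of 17 tested progenitor surface markers, 6, 5 and 4 were higher and 5, 5 and 6 lower (medians 0.31, 0.08 and 0.26). Cd244, another SLAM family gene, had 5.87 ± 1.12, 17.1 ± 1.38 and 37.8 ± 2.87 CPM in CD201+CD48-, CD201+CD48+ and CD201- cells, and Flt3, a cytokine receptor gene, rose in CD201+CD48+ cells to 36.5 ± 3.80 CPM, against 10.3 ± 1.05 CPM in CD201- cells (1.81 ± 0.14, edgeR adjusted p = 1.69e-07).

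**Figure D4:**
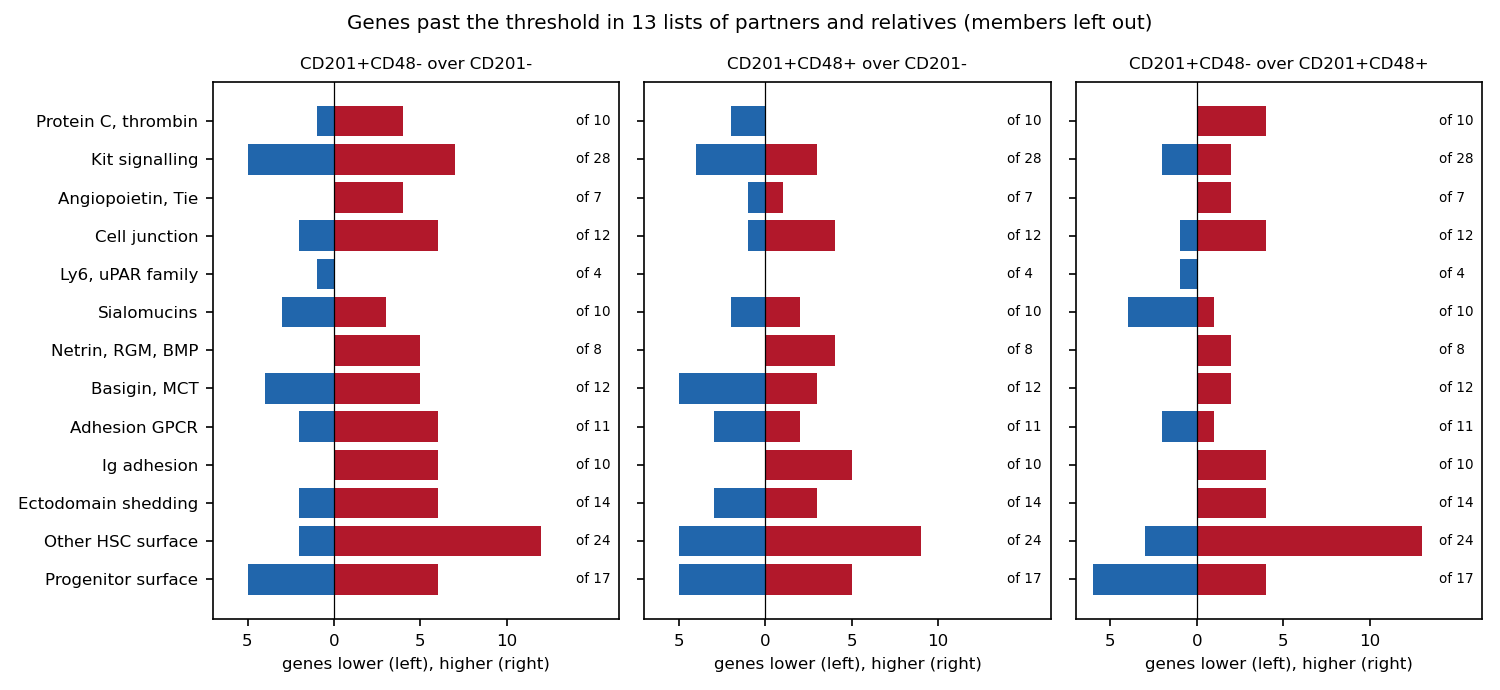
Number of genes past the edgeR threshold in 13 lists of partners and relatives, higher to the right and lower to the left of 0, in the 3 comparisons, with the number tested beside each bar. The immunoglobulin adhesion list has 6, 5 and 4 genes higher and none lower, and the sialomucin list has 4 lower and 1 higher in CD201+CD48- over CD201+CD48+ cells.

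Several of the 10 genes are also markers of endothelium, and Kit of mast cells, so markers of other cell types were read in the same libraries. Of 18 endothelial markers, 16, 16 and 14 had a count in CD201+CD48-, CD201+CD48+ and CD201- cells, and their summed level was 394 to 425, 324 to 325 and 292 to 310 CPM. Most of it came from Tie1, Pecam1 and Egfl7. Pecam1 went against the sum, at 91.7, 85.5 and 130 CPM in the 3 populations. Next in CD201+CD48- cells came Kdr, Ecscr, Emcn and Cdh5. In the same order of populations Kdr averaged 27.3, 20.7 and 18.2 CPM and Ecscr 19.6, 11.3 and 2.04 CPM. Emcn averaged 14.6, 9.46 and 1.82 CPM and Cdh5 8.42, 2.53 and 1.31 CPM. The remaining markers averaged at most 2.53 CPM (Sox18). Stab2 was at 0 in every library, and Cldn5 had 1, 1 and 2 counts in the 3 populations. Of 12 mast cell and basophil markers, 6, 8 and 7 had a count, with sums of 6.86 to 11.9, 5.50 to 7.37 and 37.0 to 47.8 CPM, and Mcpt4, Cma1 and Tpsb2 at 0 throughout. Most of the sum in CD201- cells came from Gzmb, which averaged 4.57, 1.65 and 31.9 CPM in the 3 populations. Cpa3 averaged 1.50, 1.95 and 6.78 CPM. Of 12 listed megakaryocyte markers 11 were in the count table, and all 11 had a count in each population. Their sum was 1516 to 1570 CPM in CD201+CD48- cells, 324 to 336 CPM in CD201+CD48+ cells but 621 to 679 CPM in CD201- cells. Of these sums Vwf averaged 715, 125 and 65.5 CPM in CD201+CD48-, CD201+CD48+ and CD201- cells, and Itga2b 298, 79.1 and 356 CPM. The sum was highest where Neo1 was highest, but unlike Neo1 it was also higher in CD201- than in CD201+CD48+ cells; its part in the result was not tested. Erythroid markers (8, 9 and 8 of 12 with a count) summed to 552 to 589, 457 to 492 and 300 to 352 CPM, with Hba-a1 and Car1 at 0. Neutrophil and macrophage markers (9, 9 and 11 of 15) summed to 163 to 184, 119 to 124 and 80.9 to 107 CPM, with S100a9, Ly6g and Marco at 0. Stromal markers (7, 9 and 8 of 12) summed to 8.41 to 11.5, 17.8 to 22.0 and 41.9 to 56.2 CPM, of which Pdgfrb averaged 5.17, 17.7 and 48.4 CPM, with Dcn, Lum and Adipoq at 0. Lymphoid markers (8, 7 and 8 of 13) summed to 12.1 to 13.4, 13.2 to 16.0 and 10.7 to 22.8 CPM, with Cd3e, Ms4a1 and Rag2 at 0. The endothelial, the erythroid and the neutrophil and macrophage sums were highest in CD201+CD48- and lowest in CD201- cells, as were Procr, Kit, Ly6a, Adgrl4, Alcam, Esam, Neo1 and Tek, and their part in those results was not tested.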

How the data were processed

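Raw counts, whole numbers listed by gene symbol, were used as deposited, without normalization by the authors. The submitters' processing notes name mm10 and DESeq2 without versions; the sources used here do not give the aligner, counter, annotation or strandedness. The authors also deposited normalized signal, which was equal to the counts over a factor per library (relative deviation up to 5.1e-10) and served for an alternative. Of the tables' columns, 3 matched no sample and were not used. Per the labels, more than 5000 cells per population were used, and libraries from SMARTer cDNA gave paired reads of 36 nt.

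Genes were filtered with filterByExpr (minimum count 10), TMM-scaled and tested with edgeR 4.0.16 (quasi-likelihood F test, robust, 9 libraries in one fit, group as the only factor, common coefficient of variation 8.64%) in R 4.3.3, with Benjamini-Hochberg adjustment at 0.05. The SE is the absolute log2 fold change over the square root of F; log2 CPM used a prior count of 2. Replicate numbers were not used to pair libraries in this fit, because the labels state no pairing. Genes at or under 3 counts in a group were given counting bounds. Lengths were medians of GENCODE transcripts with a CCDS tag; promoters and overlaps of genes came from RefSeq GRCm38.p6. The test was tried on simulated counts. Alternatives are DESeq2 1.42.0, limma 3.58.1 on log2 of the normalized signal plus 1, other scalings and filters, a replicate block, the compared groups alone, and leaving out each library. The 10 genes, the 13 partner lists and the 7 cell type lists were chosen with earlier results of these data known. Of each partner list up to 4 genes with the smallest p per comparison could be named. Of each cell type list the 3 highest and markers at 0 could be named. Cldn5, Kdr, Ecscr, Emcn, Cdh5 and Sox18 were named as cell type markers after their values were seen.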

Additional observations from a re-analysis of the deposited data

How the results depend on the processing

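Under 18 alternatives, 523 of 540 fold changes of the 10 genes moved by less than the spread between replicates and 17 moved further, all under library size alone or upper quartile factors; no direction reversed. Of the 10, 8 stayed under the same rule in all 18. Ly6a came under CD48 without CD201- replicate 3 and Tek under CD201 without CD201+CD48+ replicate 1, so leaving out 1 library gave 6 to 8 genes that followed CD201 and 2 to 4 that followed CD48. The edgeR call of Ly6a for CD201+CD48+ over CD201- held in 11 of 18 alternatives and that of Tek in 16. Of 2410 values of named partner genes none reversed and 115 lost their call.

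Scaling by library size alone gave 1685 genes lower for CD201+CD48- over CD201- cells, and 2701 higher and 851 lower for CD201+CD48+ over CD201- cells; it moved the median of all genes to 0.17 and 0.13 and the share of calls that were higher to 70.2% and 76.0%, against 50.3% and 50.9% with TMM. Upper quartile factors gave 64.6% for the second. A fit of the 2 groups compared alone called 3339 genes for CD201+CD48- over CD201+CD48+ cells, 1763 higher and 1576 lower. Leaving out 1 library gave 1023 (without CD201+CD48- replicate 1) to 3534 (without CD201- replicate 3) genes there, 663 to 1822 higher and 360 to 1712 lower, and 1073 (without CD201+CD48+ replicate 3) to 2115 genes lower for CD201+CD48+ over CD201- cells.

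Same-numbered libraries did not deviate together more than others (correlations of -0.113 to 0.0447, against -0.0722 to 0.100 for other numbers). Of 9 libraries 1 matched its own number best. With 3 libraries per group these values cannot show whether a number stands for a shared culture or animal. A replicate block gave 5322, 3038 and 1441 called genes in the 3 comparisons and the same 7 and 3 genes under each rule. Counts limit Neo1 and Procr in CD201- cells, at 25 and 49 counts in all.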
